A study of Saccharomyces cerevisiae with 38 samples.

Results

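The comparison described here sets the elp3 ts2 double mutant of budding yeast against ts2 alone. The arrays were taken by their titles, 2 titled elp3 ts2 (A and B) and 6 titled ts2 (A to F), so that 8 of the 38 arrays of the series enter it. The elp3 ts2 strain combines a mutation of ELP3, a gene for a histone acetyltransferase, with ts2, a temperature-sensitive allele of TAF1, and the ts2 strain carries the TAF1 allele alone. Each array measured polyA RNA of the mutant against polyA RNA of the WT strain in the other dye, and each group held both dye orientations in equal number. All strains, WT included, had been grown in medium without histidine to an OD600 near 0.8 and then held at 37 °C for 45 min before harvest. Other arrays used for context were 2 of hpa2 ts2 (HPA2 encodes another histone acetyltransferase), 2 of elp3 and 8 of WT against WT, all from cultures treated in the same way. Separate cultures are not stated for the arrays within a group, and p-values measure the spread between arrays, which may be technical.

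Elp3 is the catalytic subunit of Elongator, a complex that was first isolated with elongating RNA polymerase II and that is needed to modify the wobble uridine of certain tRNAs. Taf1 is the largest subunit of TFIID, the factor that places TATA-binding protein at promoters, and ts2 cells lose TFIID function when they are warmed. Ribosomal protein genes are a classic group that depends on TFIID, whereas stress-induced genes depend more on SAGA.

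Every value below is a log2 ratio of mutant over WT from which the median of its array was subtracted, called the level here, and a difference is the mean level of the elp3 ts2 arrays minus that of the ts2 arrays. Errors of differences are standard errors of the fit. A gene was called when its adjusted p in a linear model of all 38 arrays was below 0.05.

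The arrays of the double mutant stand apart in ways that touch every result. Each title opens with a number, and no run of these numbers holds both groups: elp3 ts2 arrays A and B carry 6 and 8, and the ts2 arrays carry numbers between 29 and 70. The hpa2 ts2 arrays A and B also carry 6 and 8. The level of genes on elp3 ts2 array A correlated at 0.602 with elp3 ts2 array B, but at 0.792 with hpa2 ts2 array A, and elp3 ts2 array B correlated at 0.790 with hpa2 ts2 array B. The correlations with the 6 ts2 arrays ran between 0.456 and 0.639 for elp3 ts2 array A and between 0.569 and 0.715 for array B. These are correlations across genes, which are no replicates. Arrays with the same title number share whatever that number stands for, and these pairs also share the dye orientation. The share of ratios made from small whole numbers (a quotient with a term under 50), which marks dim spots, was 28.0% and 21.4% on the elp3 ts2 arrays, against 14.7% to 19.1% on the ts2 arrays. Title number and genotype cannot be told apart in this comparison.

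**Figure D1:**
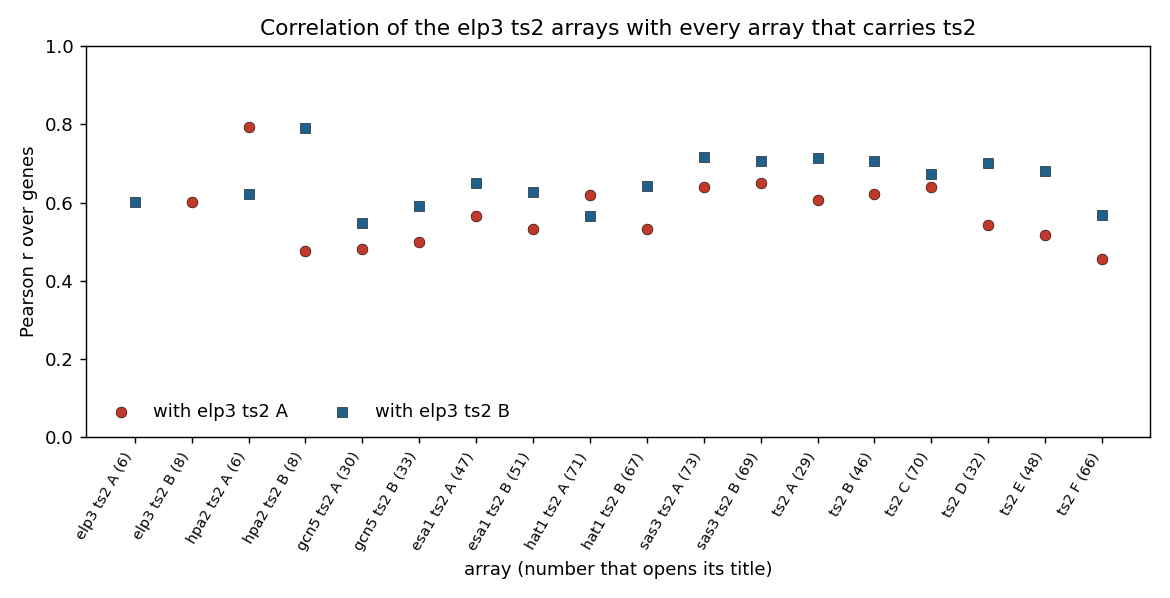
Pearson correlation across genes of elp3 ts2 arrays A (circles) and B (squares) with each array that carries ts2, with the number that opens the array's title in brackets. Each elp3 ts2 array lies highest with the hpa2 ts2 array of its own number and dye orientation (0.792 and 0.790). The elp3 ts2 arrays correlate with each other at 0.602.

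The targeted genes were examined first. ELP3 had levels of -0.60 and -0.16 on the arrays labelled elp3 ts2, against -0.54 to -0.36 on the ts2 arrays, a difference of 0.08 ± 0.13 (adjusted p = 0.753). The 2 arrays lie on either side of the ts2 range. The elp3 single mutant arrays lay at 0.05 and 0.10, and the probe of ELP3 did not mark the mutation on either kind of array. The labels do not give the kind of elp3 allele, and a probe outside a deleted part would check nothing. SLH1, a helicase gene that is high on ts2 arrays, had levels of 3.10 and 3.12 in elp3 ts2, against 3.29 to 4.53 in ts2. It lay at -0.01 and 0.30 in the elp3 single mutant, so that both kinds of array that carry ts2 share this high level. TAF1 had levels of 0.71 and 0.60 in elp3 ts2, against 0.01 to 0.56 in ts2 (difference 0.41 ± 0.15, adjusted p = 0.0865).

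Of the other Elongator genes, ELP2, which encodes a WD-repeat scaffold subunit, was higher in the double mutant, with levels of -0.59 and -0.77 in elp3 ts2, against -1.27 to -0.97 in ts2 (difference 0.43 ± 0.14, adjusted p = 0.0436). Both elp3 ts2 arrays lay above all ts2 arrays. ELP4, ELP6 and IKI1 had differences of 0.28, -0.0029 and 0.25, none of which was called. ELP4 rests on dim spots on all but 1 of the 8 arrays, and IKI3 was not analysed here. Of 14 tested genes of wobble uridine modification, 1 was higher and none lower: TUM1, a sulfurtransferase gene of the thiolation pathway, had levels of -0.09 and -0.64 in elp3 ts2, against -1.17 to -0.56 in ts2 (difference 0.52 ± 0.16). The 1 of 14 (7.14%) is near the 5.96% higher over all genes. Neither ELP2 nor TUM1 was called when either elp3 ts2 array was left out, or with the run of title numbers as a block (adjusted p = 0.659 and 0.918). The genes beside ELP3 gave no call, with differences of 0.47 for YDC1 (adjusted p = 0.0613), -0.11 for SEC16 and -0.23 for BRO1.

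Of 5522 genes tested, 553 (10.0%) were called in elp3 ts2 minus ts2 by limma with Benjamini-Hochberg adjustment, 329 higher (5.96%) and 224 lower (4.06%), and 35 of these were higher (0.634%) and 57 lower (1.03%) by at least 2-fold. The 2 elp3 ts2 arrays lay wholly outside the range of the ts2 arrays for 986 genes (17.9%), above it for 498 (9.02%) and below it for 488 (8.84%), and 432 genes (7.82%) were both called and free of overlap. This count leans on the spread shared with all other arrays and on the scaling. On the deposited scale, without subtraction of array medians, no gene was called by limma (213 at an unadjusted p under 0.05). With only the 8 arrays in the fit 1 gene was called, with all arrays scaled to the same spread 5, and with the run of title numbers as a block 45, of which 38 were among the 553. Leaving out elp3 ts2 array A left 78 calls, and leaving out array B left 297. Of the 71 genes named here that were called, 19 kept their call without elp3 ts2 array A, 41 without array B, 11 with the run of title numbers as a block and 0 on the deposited scale, and none of the 71 changed direction under these settings. Set against WT, 2170 of 5522 genes (39.3%) were called in elp3 ts2, 1059 higher (19.2%) and 1111 lower (20.1%), and 3590 of 5542 (64.8%) in ts2, 1680 higher (30.3%) and 1910 lower (34.5%). Those counts come from 2 and 6 arrays and are not comparable in power.

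MAK5, RFC5, CAT2 and PRM8 were lower in the double mutant and kept their call with the run block, and in each the ts2 arrays lay well above WT. MAK5, a DEAD-box helicase gene of large ribosomal subunit assembly, had levels of -0.09 and -0.41 in elp3 ts2, against 1.75, 1.39, 1.25, 1.0, 1.45 and 1.20 in ts2. The 8 values leave a wide gap between the groups, and the difference was -1.59 ± 0.13 (adjusted p = 1.51e-08). RFC5, which encodes a subunit of the clamp loader of DNA replication, had levels of 0.05 and -0.25 in elp3 ts2, against 1.58, 1.89, 1.15, 1.61, 1.71 and 1.44 in ts2 (difference -1.66 ± 0.19, adjusted p = 5.06e-06). CAT2, the carnitine acetyltransferase gene of acetyl group transport, had levels of -0.16 and -0.38 in elp3 ts2, against 1.69, 1.32, 1.18, 1.84, 1.46 and 1.07 in ts2 (difference -1.70 ± 0.16, adjusted p = 4.28e-08). Only 1 of its elp3 ts2 values was not dim, and CAT2 could not be tested with dim values left out. PRM8, a pheromone-regulated membrane protein gene, had levels of -0.55 and -0.88 in elp3 ts2, against 1.66, 1.31, 1.31, 1.66, 1.38 and 1.25 in ts2 (difference -2.14 ± 0.18, adjusted p = 1.51e-08). It was the gene called with only the 8 arrays in the fit.

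The same genes were near 0 on the hpa2 ts2 arrays, which share the title numbers of the double mutant. Array A of hpa2 ts2 carries the strain number of elp3, so its genotype is uncertain. RFC5 lay between -0.25 and 0.05 in elp3 ts2 and between -0.28 and -0.24 in hpa2 ts2, whereas it lay between 0.53 and 2.58 on the 8 arrays of the 4 other double mutants (gcn5, esa1, hat1 and sas3 with ts2) and between 1.15 and 1.89 in ts2. MAK5 lay between -0.41 and -0.09 in elp3 ts2, between -0.27 and -0.07 in hpa2 ts2, between 0.68 and 2.19 in the 4 other double mutants and between 1.0 and 1.75 in ts2. Neither group of 2 overlaps the arrays of the other title numbers for these genes. The hat1 ts2 arrays lay at 0.68 and 0.79 for MAK5 and at 0.53 and 0.75 for RFC5, below every ts2 array. They also lay below every ts2 array for CAT2 (0.68 and 0.62) and PRM8 (0.66 and 0.88). Elp3 ts2 minus hpa2 ts2 gave -0.08 for MAK5, 0.16 for RFC5 and -0.40 for CAT2 (adjusted p = 0.999, 0.999 and 0.664) and -0.71 for PRM8 (adjusted p = 0.236). The WT arrays of title numbers 5 and 7 minus the other WT arrays, which carry no ts2 effect, gave 0.06 for MAK5, 0.07 for RFC5, -0.06 for CAT2 and -0.04 for PRM8. They do not show whether the ts2 effect itself differed between runs. All 4 genes kept their call with the run of title numbers as a block. That block links these runs only through arrays without ts2, so it does not show whether the ts2 effect differed either.

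**Figure D2:**
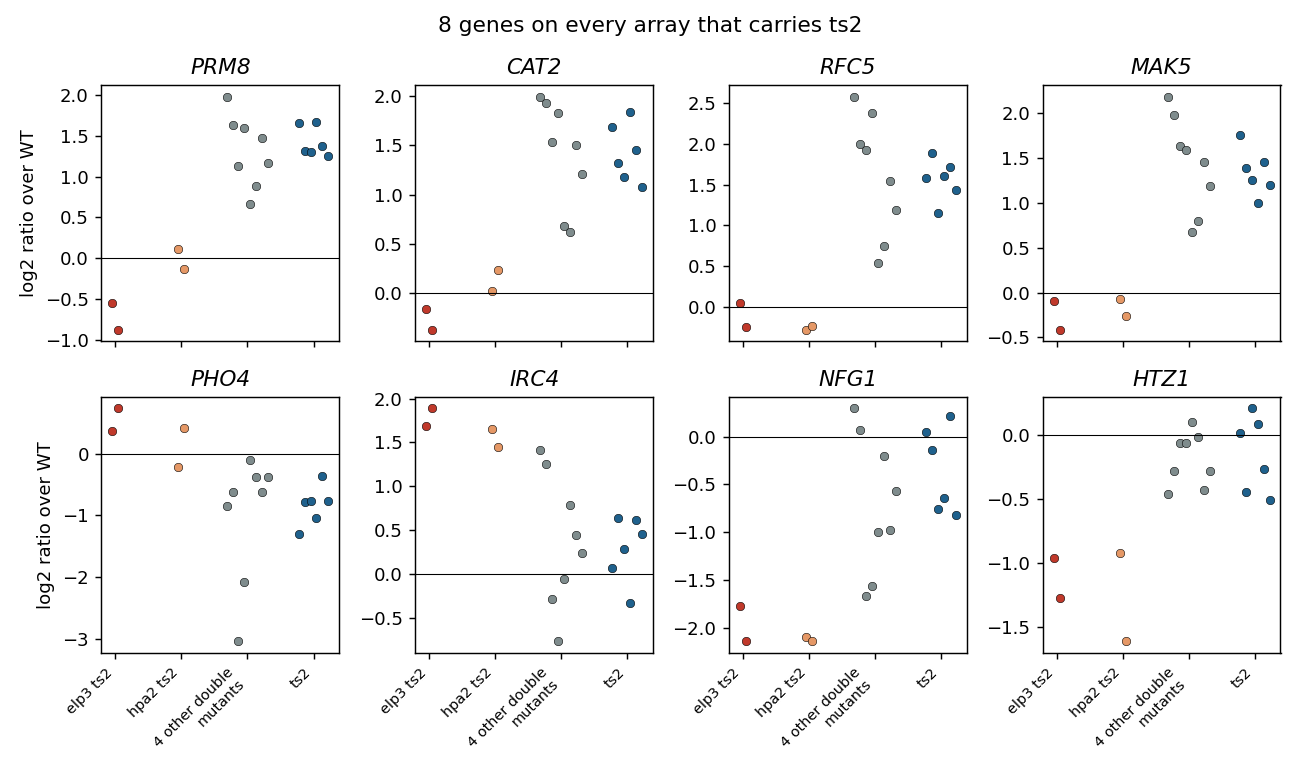
Levels (log2 ratio over WT, array median subtracted) of 8 genes on each array that carries ts2, 1 point per array: elp3 ts2 (2 arrays), hpa2 ts2 (2), the gcn5, esa1, hat1 and sas3 double mutants (8) and ts2 (6). For MAK5, RFC5, CAT2 and PRM8 the elp3 ts2 and hpa2 ts2 arrays lie below every other array, and for HTZ1 too.

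NFG1, a negative regulator of filamentous growth, had levels of -1.77 and -2.14 in elp3 ts2, against 0.05, -0.14, -0.76, -0.65, 0.22 and -0.82 in ts2 (difference -1.61 ± 0.32, adjusted p = 0.0031). The groups do not overlap, and the hpa2 ts2 arrays were as low, at -2.09 and -2.14. The gcn5 ts2 arrays, of other title numbers, lay at -1.67 and -1.56, also below every ts2 array. MMS22, a DNA repair gene, had levels of 0.07 and 1.24 in elp3 ts2, against 2.31 to 3.06 in ts2 (difference -2.08 ± 0.44). MMS22 lay at -0.09 and 2.23 in hpa2 ts2. It was not called by limma with the run of title numbers as a block (adjusted p = 0.397). For CDC24, the exchange factor of Cdc42 in bud formation, 1 array made the fall, with levels of -4.90 and 0.33 in elp3 ts2, against 0.35 to 1.06 in ts2. CRZ1, the transcription factor of calcineurin signalling, was alike, with levels of -4.34 and -0.36 in elp3 ts2, against -0.05 to 0.53 in ts2. NDE1, an external NADH dehydrogenase gene of mitochondria, had levels of -2.14 and -0.41 in elp3 ts2, against 0.15 to 2.88 in ts2. EAR1, ULA1 and KAR5 completed the 12 largest falls among called genes with a standard name and groups that do not overlap, with differences of -1.82, -1.81 and -1.60, and their elp3 ts2 arrays lay far apart, at -0.57 and -1.86 for EAR1, -3.40 and -1.15 for ULA1, and -1.82 and -0.10 for KAR5. Both elp3 ts2 values were dim for MMS22, CDC24, CRZ1 and KAR5, and only 1 was not dim for EAR1 and for ULA1.

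Among the rises, PHO4, the activator of phosphate starvation genes, had levels of 0.37 and 0.74 in elp3 ts2, against -1.30, -0.79, -0.77, -1.04, -0.36 and -0.76 in ts2 (difference 1.39 ± 0.19, adjusted p = 5.05e-05). The ts2 arrays were all below WT and the elp3 ts2 arrays above it. PHO4 lay at -0.21 and 0.42 in hpa2 ts2, and its difference from hpa2 ts2 was not called (adjusted p = 0.71). IRC4 had levels of 1.69 and 1.89 in elp3 ts2, against 0.07, 0.64, 0.29, -0.33, 0.62 and 0.46 in ts2 (difference 1.50 ± 0.22, adjusted p = 0.000101), and hpa2 ts2 lay at 1.66 and 1.45. The esa1 ts2 arrays, of other title numbers, lay at 1.41 and 1.25, also above every ts2 array. DIC1, the mitochondrial dicarboxylate carrier gene, had levels of 1.65 and 1.18 in elp3 ts2, against -0.33 to 0.60 in ts2 (difference 1.41 ± 0.23, adjusted p = 0.000624). In hpa2 ts2 DIC1 lay at 1.09 and 0.33, and its difference from hpa2 ts2 was not called (adjusted p = 0.519). UBP12, a deubiquitinase gene, had levels of 1.51 and 1.51 in elp3 ts2, against 0.04 to 0.69 in ts2 (difference 1.31 ± 0.25). Its hpa2 ts2 levels were -0.26 and 1.03, and the difference from hpa2 ts2 was not called (adjusted p = 0.159). Only 1 of the elp3 ts2 values of UBP12 was not dim.

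Among called genes with a standard name and groups that do not overlap, LOC1, a nucleolar gene of ribosome assembly and mRNA localisation, had the largest rise, with levels of 1.20 and 0.03 in elp3 ts2, against -2.45 to -0.58 in ts2 (difference 1.69 ± 0.35). GPN2, a GTPase gene of RNA polymerase assembly, had levels of 0.57 and 3.01 in elp3 ts2, against -0.03 to 0.27 in ts2. The remaining 6 of the 12 were ATG5, the autophagy conjugation gene (1.43), FYV12 (1.41), the bud neck kinase gene KCC4 (1.36), the splicing factor gene SNU66 (1.28), LSM5, a member of the Lsm ring of RNA decay and splicing (1.27), and the sporulation gene SPS4 (1.24). In all 12 both elp3 ts2 arrays lay above every ts2 array that held a value (5 for LSM5, 6 for the others), as the choice of named genes required. Of these 24 genes, 10 were called with the run of title numbers as a block, and 11 could be tested once dim values were left out. Only 1 of the 24, CRZ1, was also called against hpa2 ts2. Both elp3 ts2 values were dim for KCC4 and SNU66, and only 1 was not dim for GPN2 and for FYV12.

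**Figure D3:**
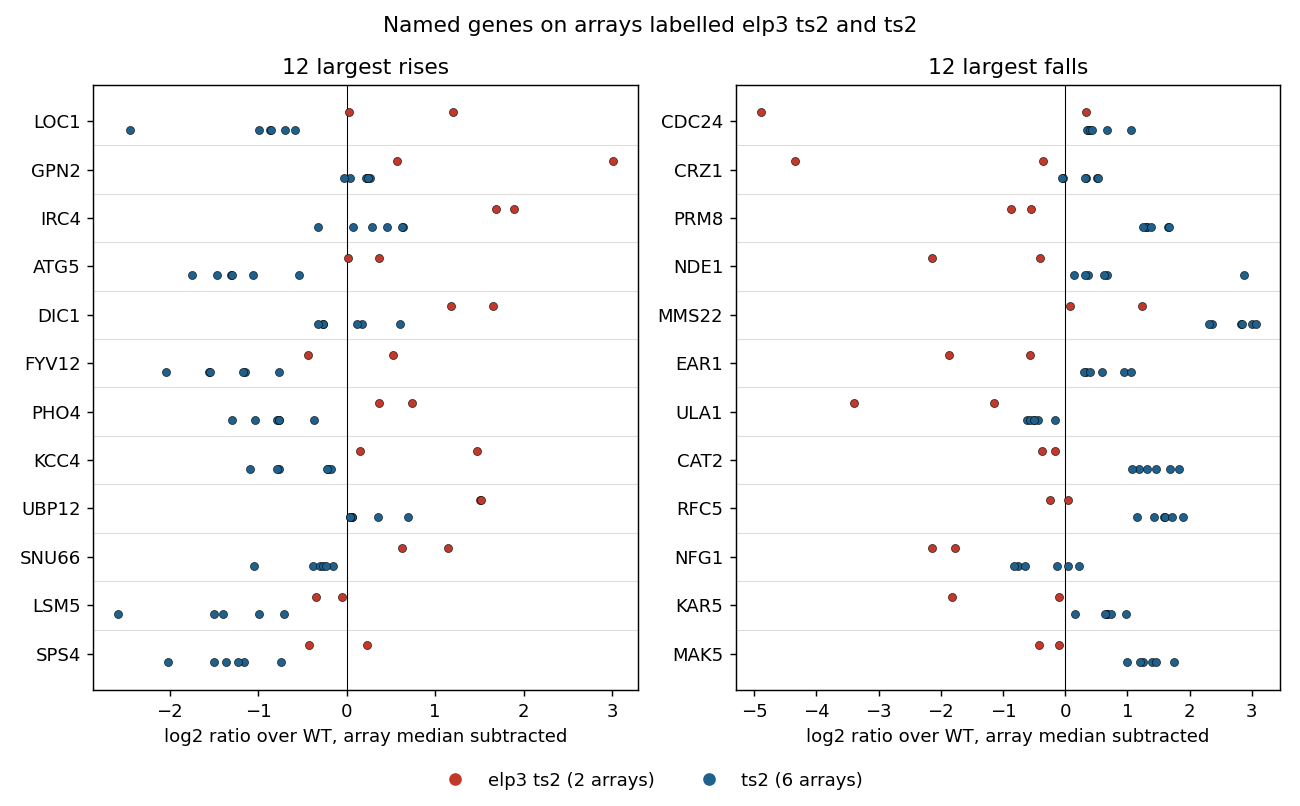
Levels (log2 ratio over WT, array median subtracted) of the 12 largest rises (left) and the 12 largest falls (right) among called genes with a standard name and groups that do not overlap, 1 point per array, with elp3 ts2 above ts2 for each gene. MAK5, RFC5, CAT2 and PRM8 keep close pairs of elp3 ts2 points, whereas for CDC24, CRZ1 and GPN2 a single elp3 ts2 array makes most of the difference.

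Part of the ribosomal protein genes, which are reduced in ts2, were higher in the double mutant. Of 135 cytosolic ribosomal protein genes tested, 18 were higher (13.3%) and none lower, where over all genes tested 5.96% were higher and 4.06% lower. The median difference was 0.32, beside 0.02 over all genes tested. On single arrays the median level of the list was -0.56 and -0.88 in elp3 ts2, against -1.03, -0.68, -0.77, -1.21, -1.23 and -1.11 in ts2. The ranges overlap: elp3 ts2 array B lies below ts2 arrays B and C. RPL23B had levels of -0.19 and -0.48 in elp3 ts2, against -2.05 to -0.93 in ts2 (difference 1.10 ± 0.24), RPL28 had a difference of 0.87 ± 0.20, and RPS24B one of 0.82 ± 0.16. RPL23B and RPS24B have near-identical copies, which spots of PCR product do not separate. The list's median was -0.61 and -1.04 in hpa2 ts2. Of other arrays with title numbers 5 to 9, it was 0.11 and -0.10 in elp3, and 0.33 and -0.07 on WT arrays A and E. The part of the title number in the result cannot be told apart from genotype. The 18 calls became 1 without elp3 ts2 array A, 6 without array B and 0 with the run of title numbers as a block. With all arrays scaled to the same spread none was called, and the median difference was 0.19.

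Of 73 mitochondrial ribosomal protein genes 11 were higher (15.1%, beside 5.96% over all genes) and none lower (median difference 0.21). Among the 11 were MRPS16 (0.78 ± 0.21), MRPS17 (0.77 ± 0.21) and RSM18 (0.74 ± 0.23). None of the 11 was called without elp3 ts2 array A. Of 24 genes of RNA polymerases I and III 4 were higher (16.7%, beside 5.96% over all genes) and none lower (median 0.32). RPC11, a subunit gene of polymerase III, had levels of -0.40 and -0.63 in elp3 ts2, against -1.82 to -1.17 in ts2 (difference 1.04 ± 0.21), and RPC34, another, had a difference of 0.61 ± 0.15. Of 113 ribosome biogenesis genes 8 were higher and 2 lower (8.85% called, median 0.16), which is near the 10.0% called over all genes. The proteasome list had 3 of 35 genes higher (8.57%, beside 5.96% over all genes) and none lower. PUP3 and PRE3, genes of core particle subunits, both had a difference of 0.64. Without elp3 ts2 array A no gene of the polymerase and proteasome lists was called, and in the biogenesis list 1 was lower and none higher.

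Histone genes gave the highest median of the lists, at 0.64. Of 11 tested, 4 were higher and 1 lower (45.5% called, beside 10.0% over all genes), with near-identical copies counted separately. HTA2, a gene of histone H2A, had levels of 0.96 and 1.05 in elp3 ts2, against -0.21 to 0.52 in ts2 (difference 0.92 ± 0.20, adjusted p = 0.00579). HHT1, a gene of histone H3, had a difference of 0.86 ± 0.16 and HTA1 one of 0.74 ± 0.20. Both belong to pairs of near-identical genes that the spots do not separate. HTA1 and HTA2 form such a pair, so their calls are not separate findings. HTZ1, which encodes the H2A variant of promoter nucleosomes, moved the other way, with levels of -0.96 and -1.27 in elp3 ts2, against 0.02, -0.45, 0.21, 0.08, -0.27 and -0.51 in ts2 (difference -0.96 ± 0.17, adjusted p = 0.00143). All elp3 ts2 values of HTZ1 lie below all ts2 values, and the hpa2 ts2 arrays lay at -0.92 and -1.61. The list's median level was 0.70 and 0.78 in elp3 ts2, against -0.27 to 0.52 in ts2, and 0.36 and 0.54 in hpa2 ts2. Without elp3 ts2 array A the list had no higher and 1 lower gene, without array B 2 higher and 1 lower, and with the run of title numbers as a block no call. With all arrays scaled to the same spread none was called, and the median difference was 0.49.

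Of 72 targets of the stress factors Msn2 and Msn4 tested, 9 were lower (12.5%, beside 4.06% over all genes) and none higher, with a median difference of -0.43. The list's median level was 1.23 and 1.15 in elp3 ts2, against 1.86, 1.66, 1.52, 1.57, 1.58 and 1.48 in ts2, and 1.51 and 1.78 in hpa2 ts2, so that both elp3 ts2 arrays lay below the other 8. SOL4, a phosphogluconolactonase paralogue gene, had levels of 0.86 and 1.85 in elp3 ts2, against 1.90 to 2.87 in ts2 (difference -0.96 ± 0.30, adjusted p = 0.0434). Against hpa2 ts2 the list had a median difference of -0.44, beside 0.03 over all genes, and no member was called in either direction. Without elp3 ts2 array A the list had 1 lower gene, without array B 3, and with the run of title numbers as a block 0. With all arrays scaled to the same spread none was called, and the median difference was -0.25. Of 33 chaperone genes of the heat shock factor Hsf1, 1 was lower (3.03%, near the 4.06% over all genes). Their median difference was -0.21, and -0.42 against hpa2 ts2. HSP26, a small heat shock protein gene, had levels of 2.26 and 2.14 in elp3 ts2, against 2.60 to 3.64 in ts2 (difference -0.84 ± 0.27, adjusted p = 0.0492). It did not keep this call with the run of title numbers as a block (adjusted p = 0.611). Of 18 glycolysis genes none was called, and their median levels were 1.71 and 1.69 in elp3 ts2, against 1.44 to 1.91 in ts2.

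**Figure D4:**
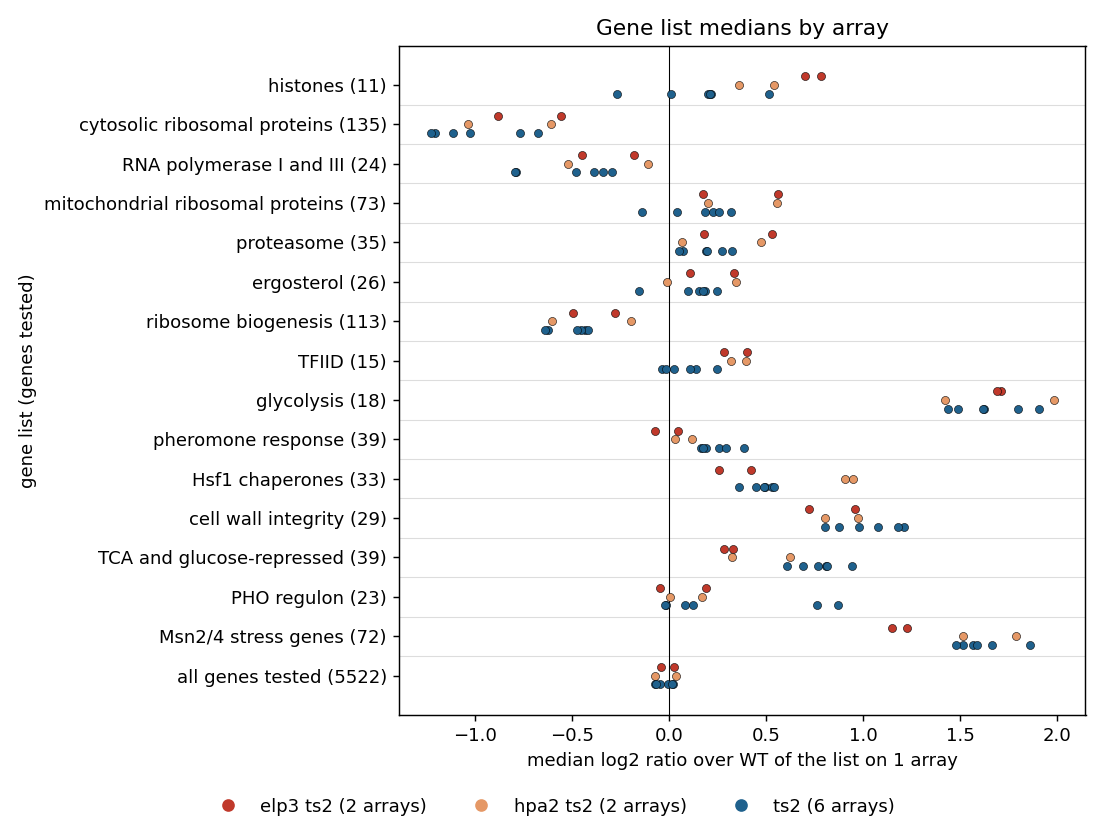
Median level (log2 ratio over WT) of the tested genes of 15 lists and of all tested genes, 1 point per array, with elp3 ts2 on top, hpa2 ts2 in the middle and ts2 at the bottom of each row. The Msn2/4 list lies at 1.23 and 1.15 on the elp3 ts2 arrays, below all hpa2 ts2 and ts2 arrays, and the histone list lies at 0.70 and 0.78, above all of them.

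Of 39 genes of the TCA cycle and its glucose-repressed partners, 6 were lower (15.4%, beside 4.06% over all genes) and 2 higher (5.13%, beside 5.96%). The median difference was -0.30, with median levels of 0.28 and 0.33 in elp3 ts2, against 0.61 to 0.94 in ts2. CIT2, the peroxisomal citrate synthase gene of the retrograde response, went against the list, with levels of 2.26 and 1.95 in elp3 ts2, against 0.68 to 1.50 in ts2 (difference 1.09 ± 0.19, adjusted p = 0.00113). Of 33 genes of oxidative phosphorylation 3 were lower (9.09%, beside 4.06% over all genes) and none higher. The 3 were NDE1 (-2.11), NDI1 (-0.71) and ATP2 (-0.64). No gene of this list was called with elp3 ts2 array A left out or with the run of title numbers as a block. Of 29 cell wall integrity genes 3 were lower (10.3%, beside 4.06% over all genes) and none higher. They were PIR3 (-1.04 ± 0.31), SED1 (-0.69 ± 0.20) and GFA1, the first enzyme of chitin precursor synthesis (-0.67 ± 0.13). Without elp3 ts2 array A the TCA list had 1 lower and no higher gene and the cell wall list 1 lower, and without array B the cell wall list again had 1 lower.

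In the TFIID list TAF8 was lower and 2 of the 15 genes were higher. TAF8 had levels of 0.33 and 0.61 in elp3 ts2, against 2.61, 1.52, 1.24, 2.62, 1.75 and 1.14 in ts2 (difference -1.34 ± 0.29, adjusted p = 0.00569), and hpa2 ts2 was equally low at 0.60 and 0.42. TAF10 had levels of 0.40 and 0.33 in elp3 ts2, against -0.33 to 0.03 in ts2 (difference 0.53 ± 0.16). The SAGA list had 2 of 15 genes higher (13.3%, beside 5.96% over all genes) and none lower. They were NGG1 (0.51) and HFI1 (0.45), which encode adaptor subunits. No gene of either list was called with elp3 ts2 array A left out or with the run of title numbers as a block. EFG1 and RNH70, neighbours of TAF1, were higher by 0.77 ± 0.22 and 0.43 ± 0.14.

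In the list of phosphate genes 2 of 23 were higher, PHO4 among them, and 1 lower (13.0% called, beside 10.0% over all genes). The lower one, VTC1 of polyphosphate synthesis, had levels of -0.61 and 0.14 in elp3 ts2, against -0.04 to 1.50 in ts2 (difference -0.96 ± 0.24). The phosphate transporter gene PHO84 and SPL2 had differences of -0.98 and -0.89 that were not called (adjusted p = 0.319 and 0.19). For PHO84, ts2 arrays D and F lay at 2.12 and 2.42 and the other ts2 arrays at 0.81 or below. Of 26 ergosterol genes 4 were higher (15.4%, beside 5.96% over all genes) and none lower. The difference was 1.08 ± 0.26 for ERG5 and 0.76 ± 0.17 for ERG3. Across other scalings, model terms and arrays left out, the difference of ERG5 ran from 0.19 to 1.97. Of 31 iron genes 3 were higher and 1 lower (12.9% called, beside 10.0% over all genes). FIT2 and FIT3, cell wall mannoprotein genes of iron retention, rose by 0.81 and 0.72, and the siderophore transporter gene ENB1 fell by 1.12. Across the same settings as for ERG5, the difference of ENB1 ran from -1.90 to -0.33. Of 27 methionine and sulfur genes 1 was higher and 1 lower (7.41% called, beside 10.0% over all genes), with a median difference of -0.0003. MUP3, a methionine permease gene, had levels of -0.07 and 0.44 in elp3 ts2, against 0.63 to 1.04 in ts2 (difference -0.65 ± 0.12). Of 69 amino acid synthesis genes controlled by Gcn4, 4 were higher and 3 lower (10.1% called), with a median difference of 0.03. HIS4 had a difference of -0.81 ± 0.21. Of the 8 strain marker genes LYS2 alone was called (12.5%, beside 10.0% over all genes), and it was lower (-0.44 ± 0.13). HIS3, the histidine marker, had levels of 1.78 and 1.36 in elp3 ts2, against 1.05 to 1.71 in ts2. With elp3 ts2 array A left out no ergosterol or iron gene was called, and without array B the ergosterol list had 3 higher and 1 lower and the iron list 1 higher and 2 lower.

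Of 39 pheromone response genes 4 were lower and 1 higher (12.8% called, beside 10.0% over all genes). FAR1, the cell cycle inhibitor of the response, had a difference of -1.11 ± 0.28. Across other scalings, model terms and arrays left out, the difference of FAR1 ran from -1.81 to -0.40. The mating type markers do not separate the groups by type: the alpha-specific list had median levels of -1.34 and -1.79 in elp3 ts2, against -2.57 to -1.12 in ts2, and of its 4 genes STE3 alone was called (0.65 ± 0.20). None of 7 a-specific genes was called. In the G1/S list 2 of 49 genes were higher and 5 lower (14.3% called, beside 10.0% over all genes). TOS4, a target of the G1/S factors, had levels of -0.51 and -0.66 in elp3 ts2, against -2.05 to -1.19 in ts2 (difference 1.02 ± 0.20). RAD54 of recombinational repair had a difference of -1.28 ± 0.41, which ran from -2.24 to -0.32 across the same settings as for FAR1. The G1/S list had 1 higher and 2 lower genes when either elp3 ts2 array was left out, and the pheromone list had 1 lower gene without array A and 6 without array B.

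Of 40 subtelomeric COS and PAU genes 2 were higher and 1 lower (7.5% called, beside 10.0% over all genes). TIR3, a cell wall mannoprotein gene, had levels of -0.64 and 2.43 in elp3 ts2, against -1.48 to -0.21 in ts2 (difference 1.62 ± 0.42, adjusted p = 0.0178), and its 2 elp3 ts2 arrays disagreed, with array A inside the ts2 range.

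Of 204 genes of chromosome IX 19 were higher (9.31%, beside 5.96% over all genes) and 1 lower (0.490%, beside 4.06%). The median difference was 0.10. On ts2 array E the median level of this chromosome was -0.47, and on the other ts2 arrays it lay between -0.13 and 0.09. Without ts2 array E 14 of its genes were higher and 1 lower, and the median difference was 0.05. Leaving out elp3 ts2 array A gave 3 higher and 1 lower, leaving out array B 4 higher and 2 lower, and with the run of title numbers as a block none was called.

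Set against hpa2 ts2, whose arrays carry the same title numbers, the double mutant was tested in the same fit. Of 5504 genes tested, 15 (0.273%) were called, 3 higher (0.0545%) and 12 lower (0.218%), and 407 had an unadjusted p under 0.05. The arrays share title numbers 6 and 8, and arrays of the same letter share the dye orientation. The deviations of the A arrays from their group means correlated at 0.570, and title number and dye cannot be told apart in this value. With the title number as a random block 38 genes were called, and with the array letter as a replicate block 5. Of the 15, 4 lower ones were also called lower against ts2. COG6, a gene of the Golgi tethering complex, had levels of -1.28 and -0.26 in elp3 ts2, against 1.30 and 0.91 in hpa2 ts2 (difference -1.87, adjusted p = 0.000973) and 0.11 to 0.58 in ts2. CYB2, the lactate dehydrogenase gene of the mitochondrial intermembrane space, had levels of -0.62 and -0.31 in elp3 ts2, against 0.32 and 0.34 in hpa2 ts2 (difference -0.80, adjusted p = 0.0277) and -0.0023 to 0.31 in ts2. CRZ1 and LPX2 had differences of -3.11 and -1.38. None of the 4 could be tested with dim values left out, and 1 gene of 3278 was called then. The array titled hpa2 ts2 A carries the strain number of elp3, and without it 146 genes were called; without elp3 ts2 array B the count was 58, without hpa2 ts2 array B 36, and without elp3 ts2 array A 19. For comparison, hpa2 ts2 minus ts2, which uses the same ts2 arrays, called 360 of 5520 genes (6.52%), 163 higher (2.95%) and 197 lower (3.57%), and WT arrays of title numbers 5 and 7 minus the other WT arrays called 100 of 5478 (1.83%), 16 higher (0.292%) and 84 lower (1.53%).

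Without ts2, 28 of 5529 genes were called in elp3 minus WT (0.506%), 12 higher (0.217%) and 16 lower (0.289%). The count was 64 without elp3 array A, 17 without elp3 array B and 54 without WT array A. Whether elp3 ts2 minus ts2 differed from elp3 minus WT was tested by an interaction, elp3 ts2 minus ts2 minus elp3. Of 5512 genes, 36 passed (0.653%), 15 higher (0.272%) and 21 lower (0.381%), and without elp3 ts2 array B 56 passed. Among the falls were CAT2 (-1.95 ± 0.21), PRM8 (-1.73 ± 0.24), RFC5 (-1.66 ± 0.26) and MAK5 (-1.61 ± 0.18). In the elp3 single mutant MAK5 lay at 0.10 and -0.07 and RFC5 at -0.14 and 0.14. Among the rises were SPS1 (2.14 ± 0.44), CHC1 (2.00 ± 0.45), SNU66 (1.92 ± 0.39) and FYV12 (1.78 ± 0.40). SPS1 and CHC1 had low levels in the elp3 single mutant, of -1.83 and -3.45 for SPS1 and -0.47 and -2.47 for CHC1, and were not called in elp3 ts2 minus ts2 (adjusted p = 0.373 and 0.343).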

How the data were processed

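Two-colour arrays of PCR products of yeast genes were read from the deposited series table. The deposited values, an other unit than log2, are linear ratios of mutant over WT per spot, all in that direction despite the dye swaps. Between 99.5% and 100.0% of them per array are quotients of whole numbers, and array medians run from 0.329 to 2.42. The series text names mode normalisation and spike correction, but not at which side of the deposited values these stand. Background correction and image software are not given in the sources used here.

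Ratios above 0 were turned to log2, array medians subtracted and spots of a gene averaged (5544 genes). All 1477 unnamed spots were left out. Limma 3.58.1 in R 4.3.3 fitted all 38 arrays with a term per mutant group, WT at 0 and a dye term per gene. Adjusted p-values are Benjamini-Hochberg. A gene was tested where both elp3 ts2 arrays and at least 4 of 6 ts2 arrays held a ratio above 0. The fit was tested on simulated data. The number of arrays limits precision, and spots of PCR product read both strands and near-identical genes together.

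The array titled hpa2 ts2 A kept its title group although its strain number is that of elp3. The arrays compared, the gene lists and the named genes were chosen with earlier results of these data known. Named genes were the 12 largest rises and falls called with a standard name and groups that do not overlap, those also called against hpa2 ts2, the 4 largest rises and falls of the interaction, targeted genes and their neighbours, and up to 4 members of each list. Array letters did not pair the groups: deviations correlated at 0.043 (A) and -0.083 (B). Alternatives were other scalings, dye terms, blocks, filters, weights and arrays left out. Leaving out dim values, giving WT arrays no dye sign and leaving out WT array A were chosen after seeing the data.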

Additional observations from a re-analysis of the deposited data

Results flagged for a closer look

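Among the 85 genes named in the text whose ts2 arrays were examined, 3 had a ts2 array far from the others, fewer than the 1 in 20 that chance gives. LOC1 lay at -2.45 on ts2 array E and between -0.99 and -0.58 on the others. SNU66 lay at -1.04 on ts2 array E and between -0.38 and -0.16 on the others. NDE1 lay at 2.88 on ts2 array F and between 0.15 and 0.67 on the others.

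For 11 named genes elp3 ts2 minus ts2 differed from elp3 minus WT, by the interaction term of the limma fit. It was positive for FYV12 (1.78, adjusted p = 0.0284), SNU66 (1.92, adjusted p = 0.0186), SPS1 (2.14, adjusted p = 0.0227) and CHC1 (2.00, adjusted p = 0.0285). It was negative for CAT2 (-1.95, adjusted p = 2.7e-06), PRM8 (-1.73, adjusted p = 0.000239), RFC5 (-1.66, adjusted p = 0.000852), MAK5 (-1.61, adjusted p = 3.23e-06), HTZ1 (-1.02, adjusted p = 0.0284), MUP3 (-0.87, adjusted p = 0.00536) and CYB2 (-0.84, adjusted p = 0.0234). In each the elp3 ts2 arrays and the elp3 arrays carry title numbers between 5 and 9, and the ts2 arrays do not. Genotype and title number cannot be told apart in these values. The named genes were chosen in part by this interaction, so the count of 11 is no separate result. Over all genes tested 36 of 5512 passed (0.653%).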

How the results depend on the processing

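For elp3 ts2 minus ts2, 553 genes were called, 329 higher and 224 lower. On the deposited scale 0 were called, 0 higher and 0 lower (213 at an unadjusted p under 0.05 in limma), and the median of all genes stood at 0.39 instead of 0.02, so that list medians there are read relative to it. With arrays scaled to the same median absolute deviation 5 were called, 1 higher and 4 lower, and with only the 8 arrays 1 was called, 0 higher and 1 lower (1067 at an unadjusted p under 0.05). With no dye term 328 were called, 173 of them higher, and with a dye term for each run of title numbers 505 were higher. With the run of title numbers as a block 45 were called (24 higher, 21 lower), and with array weights 216 (111 higher, 105 lower). With the array letter as a replicate block 112 were called (55 higher, 57 lower), although the letters share only a name. Leaving out 1 array (of elp3 ts2, ts2 or WT array A) gave 78 to 636 calls, 39 to 396 higher and 39 to 261 lower.

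For elp3 ts2 minus hpa2 ts2 the 15 calls became 1 on the deposited scale, 0 with equal spread, 25 with a dye term per run, 0 with only those 4 arrays (387 at an unadjusted p under 0.05), 38 with the title number as a random block, 5 with array weights, 5 with the replicate block and 1 with dim values left out. Leaving out 1 array gave 19 to 146. For elp3 minus WT the 28 calls became 3 on the deposited scale, 132 with equal spread, 144 with a dye term per run, 5 with only those arrays, 5 with the run block, 17 with array weights, 0 with the replicate block (297 at an unadjusted p under 0.05) and 17 to 64 with 1 array left out. For the interaction the 36 calls became 0 on the deposited scale, 3 with equal spread, 93 with a dye term per run, 0 with only those arrays, 20 with the run block, 13 with array weights, 7 with the replicate block and 28 to 56 with 1 array left out. For hpa2 ts2 minus ts2 the run block gave 61 calls, and for the WT arrays no dye term gave 64. The cause of these moves was not tested.

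Uncalled genes that changed sign were ELP6 (0.36), SEC16 (0.25) and BRO1 (0.13) on the deposited scale, ELP6 (0.0025) with the title number as a random block and SEC16 (0.13) with the run block. With 1 array left out ELP3 ran from -0.082 (without elp3 ts2 array B) to 0.24, ELP4 from -0.0023 (without elp3 ts2 array B) to 0.60, ELP6 from -0.12 to 0.11 and SEC16 from -0.26 to 0.041 (both positive without elp3 ts2 array A), and ELP6 was also 0.0079, 0.0027 and 0.063 without ts2 array B, C and E. Filters on missing values and the added treatments of WT arrays left the main count within 1.5 times its value.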
